A study of Mus musculus with 26 samples.

Results

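The 39 genes examined encode enzymes that make cholesterol and fatty acids, the SREBP proteins that switch those enzymes on, and proteins that move and store sterols. They were taken by gene symbol, and each symbol was looked up in the authors' tables. All 39 were among the 15300 genes of the normalized T cell table and 38 were among the 15629 of the MC38 table, where Abcg1 was not listed. By role, 7 act in the mevalonate steps, 12 between squalene and cholesterol, 5 in SREBP control, 7 in sterol transport and storage, and 8 in fatty acid synthesis.

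Cells build cholesterol from acetyl-CoA through mevalonate and squalene, and build fatty acids from the same precursor. The SREBPs are made as proteins of the endoplasmic reticulum membrane. When membrane sterol is low, the escort protein SCAP carries them to the Golgi, where they are cut, and the released part enters the nucleus and activates the genes for both routes. When sterol is high, the INSIG proteins hold SCAP back. Sterol in excess is exported by ABC transporters, esterified for storage, or sensed through oxysterols by the LXR receptors, which activate Abca1, Abcg1, Mylip and Srebf1. Dividing tumour cells and activated T cells both draw on this system to build membranes.

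The 26 libraries hold mouse poly(A) RNA in 9 groups, each of 3 libraries except WT MC38 cells with MRTX1719, which have 2. The T cells were pmel-1 cells, from mice with a transgenic receptor for the melanoma antigen gp100, and were kept in IL-2. The tumour cells were the colon adenocarcinoma line MC38/gp100, which carries that antigen, either with Mtap knocked out (KO) or not (WT). Mtap encodes the enzyme that clears methylthioadenosine (MTA). Each kind of cell received MRTX1719 at 0.5 uM, GSK3326595 at 0.5 uM, or DMSO. MRTX1719 inhibits the arginine methyltransferase PRMT5 when MTA is bound to it, and GSK3326595 inhibits PRMT5 without that requirement. T cells were treated for 3 days and MC38 cells for 5 days. The labels do not say how many clones the KO line came from, nor whether replicates were separate cultures or mice, so p-values reflect only library-to-library spread, part or all of which may be technical.

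Promoters of Hmgcs1, Fasn, Insig1 and Tm7sf2 are shown as examples, because SREBPs act at promoters, together with the factor NF-Y. The sequences are from RefSeq on GRCm38.p6, which is not the build of the counts, and each runs 5′ to 3′ on the gene's strand from 250 bases before the start site to 50 bases after it. Capitals mark the letters TCACNCCAC (a sterol response element core), CCAAT (the NF-Y core box) and CACGTG (a palindromic E-box), searched on both strands, so that a box on the other strand reads ATTGG.
Hmgcs1: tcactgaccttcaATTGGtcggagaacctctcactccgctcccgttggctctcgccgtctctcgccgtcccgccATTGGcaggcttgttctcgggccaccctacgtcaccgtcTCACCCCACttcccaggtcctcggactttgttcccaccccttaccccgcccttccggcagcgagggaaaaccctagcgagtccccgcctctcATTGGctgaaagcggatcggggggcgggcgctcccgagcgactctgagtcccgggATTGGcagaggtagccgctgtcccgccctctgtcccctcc
Fasn: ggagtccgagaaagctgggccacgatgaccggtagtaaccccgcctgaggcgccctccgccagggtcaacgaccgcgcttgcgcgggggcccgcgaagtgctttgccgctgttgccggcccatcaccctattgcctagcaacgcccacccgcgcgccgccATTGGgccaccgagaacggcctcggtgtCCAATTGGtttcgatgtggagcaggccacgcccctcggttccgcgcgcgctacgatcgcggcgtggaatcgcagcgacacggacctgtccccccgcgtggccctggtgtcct
Insig1: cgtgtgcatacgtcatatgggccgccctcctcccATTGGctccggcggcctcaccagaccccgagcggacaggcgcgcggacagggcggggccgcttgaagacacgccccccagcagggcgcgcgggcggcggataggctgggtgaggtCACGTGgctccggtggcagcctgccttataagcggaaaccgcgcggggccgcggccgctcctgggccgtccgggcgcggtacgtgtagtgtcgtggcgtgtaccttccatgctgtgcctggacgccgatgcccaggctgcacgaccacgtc
Tm7sf2: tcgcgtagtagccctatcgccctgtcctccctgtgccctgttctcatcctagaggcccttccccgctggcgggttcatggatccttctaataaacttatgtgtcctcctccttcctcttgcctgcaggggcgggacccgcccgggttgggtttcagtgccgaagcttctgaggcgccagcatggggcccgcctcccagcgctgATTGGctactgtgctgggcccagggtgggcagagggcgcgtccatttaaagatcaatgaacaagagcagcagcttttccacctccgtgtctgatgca
They lie at chr13:119690101-119690400 (plus strand), chr11:120824498-120824797 (minus), chr5:28071162-28071461 (plus) and chr19:6067801-6068100 (minus), in the order shown. Hmgcs1, the HMG-CoA synthase gene, holds the sterol response letters 137 bases before its start site and has 4 NF-Y boxes. Fasn, the fatty acid synthase gene, has 3 NF-Y boxes, of which the pair 62 and 59 bases before the start site share bases. Insig1 has an E-box 101 bases before the start site and 1 NF-Y box, and Tm7sf2 has 1 NF-Y box. Of the 39 genes, 30 had an entry in the promoter table. The sterol response letters were found in only 1 of these 30, the Hmgcs1 shown above, against 1.44% of 27025 genes. The NF-Y box was found in 24 of the 30, against 41.1% of all genes, and the E-box in 6, against 8.09%. A match is a run of letters, not a measured binding site.

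Total counts were 13813406 to 20772699 in the 9 T cell libraries and 19302768 to 27786226 in the 17 MC38 libraries, and no 2 replicates were identical. Levels are given as CPM (a gene's share of the library's counts, scaled to a fixed total) on effective library sizes, computed separately for T cells and for MC38 cells. Mtap averaged 205 to 271 CPM in the 3 KO groups and 393 to 419 CPM in the 3 WT groups, lower in KO cells but not absent. T cell libraries held 7 of 7 T cell markers. Of the other lists, 1 of 3 CD4 T cell markers, Foxp3, and 2 of 4 NK cell markers, Klrb1c and Eomes, reached 1 CPM in at least 1 T cell group. So did 1 of 5 B cell, 1 of 6 myeloid, 2 of 6 epithelial and 4 of 8 fibroblast and endothelial markers. Cd4 and Ncr1 were under 1 CPM in T cells. MC38 libraries held 1 of 6 epithelial markers, Krt8, while Krt18, Krt19, Epcam, Cdh1 and Vil1 were under 1 CPM, so most markers of the labelled adenocarcinoma were near 0. In MC38 cells 1 of 7 T cell markers, Lck, 3 of 6 myeloid markers, Cd14, Cd68 and Lyz2, 1 of 4 NK cell markers, Eomes, and 2 of 7 general leukocyte markers, Ptprc and Cd53, reached 1 CPM in at least 1 group. So did 1 of 5 B cell markers, Pax5. Cd3e, Csf1r, Adgre1, Itgam and Ncr1 stayed under 1 CPM in MC38 cells. The collagen and stromal genes of the fibroblast list summed to at least 2775 CPM in every MC38 library. Reads of some members can be shared with other genes. Tm7sf2 overlaps exons of Vps51 by 532 bases, Acat2 is 97.7% identical to Acat3 over 1477 bases, Scd1 and Scd2 are 95.5% identical over 623 bases, and Fdps, Idi1, Fdft1, Acaca and Elovl6 have close pseudogenes. In all, 13 members have exons that overlap another gene and 15 share such sequence, so their values are less certain than those of the rest.

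In T cells, GSK3326595 lowered most of the genes in both routes. Of 39 genes tested, 31 fell, 1 rose and 7 did not pass (edgeR quasi-likelihood test, Benjamini-Hochberg adjusted p under 0.05 over all genes), which is 32 called against a background of 52.8% of all 13753 genes tested, with 26.2% lower and 26.6% higher. The median log2 fold change of the 39 was -0.47, beside 0.00 for all genes. Every one of the 8 fatty acid synthesis genes fell, with a median of -0.90, as did 6 of 7 mevalonate genes, 11 of 12 genes between squalene and cholesterol and 4 of 5 SREBP control genes, while transport and storage genes had 2 lower, 1 higher and 4 that did not pass.

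Scd1, which encodes a desaturase that makes monounsaturated fatty acids, had 5.62, 7.16 and 7.89 CPM with GSK3326595, against 39.1, 40.5 and 36.5 CPM with DMSO. Every GSK3326595 library was far under every DMSO library, at 0.178 of the DMSO level (-2.49 ± 0.09 as log2 fold change ± SE, adjusted p = 1.58e-42). The related desaturase gene Scd2 fell by 1.28, and Fads2 and Fads1, neighbours on chromosome 19 that encode desaturases for polyunsaturated fatty acids, fell by 1.67 and 0.65. Fasn averaged 311 ± 3.78 CPM with GSK3326595 and 619 ± 12.6 CPM with DMSO (SD, n = 3 each), or 0.501 of the DMSO level (adjusted p = 2.59e-43). The elongase gene Elovl6 fell by 0.81 and the acetyl-CoA carboxylase gene Acaca by 0.75. Acly, which supplies cytosolic acetyl-CoA, fell by 0.23, the smallest change of the 8 fatty acid synthesis genes in log2 terms.

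In the sterol route Fdps, the farnesyl diphosphate synthase gene, had 179, 176 and 182 CPM with GSK3326595, against 358, 352 and 354 CPM with DMSO in T cells. The groups lay well apart (-0.98 ± 0.04, adjusted p = 6.05e-42). Mvk, for mevalonate kinase, fell by 0.80, the decarboxylase gene Mvd by 0.79, Acat2, for the thiolase that starts the route, by 0.53, Hmgcs1 by 0.53 and Pmvk by 0.29, while the isomerase gene Idi1 did not pass at 0.05 ± 0.06. Acat3, a near copy of Acat2, and Tcp1, 98.7% identical to it over 445 bases, were higher, with log2 fold changes of 1.30 and 0.27. Past squalene the ketoreductase gene Hsd17b7 had 4.81, 4.07 and 4.54 CPM with GSK3326595, against 8.76, 7.74 and 8.43 CPM with DMSO, a low level in both groups without overlap (-0.89 ± 0.14, adjusted p = 9.74e-08). Nsdhl fell by 0.66, lanosterol synthase, Lss, by 0.63, Sc5d by 0.58 and Dhcr7, for the final reductase, by 0.47. Sqle, Msmo1, Fdft1, Ebp, Cyp51 and Lbr fell by 0.13 to 0.33. Tm7sf2, whose product reduces the same sterol bond as that of Lbr, did not pass at 0.17 ± 0.10. Vps51, whose exons overlap those of Tm7sf2, was higher, by 0.70 in log2 units.

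Of the control genes Insig1, itself a well-known SREBP target, had 45.0, 39.8 and 44.3 CPM with GSK3326595, against 93.6, 92.5 and 86.9 CPM with DMSO in T cells. Its level was less than that of any DMSO library in all 3 treated libraries, with a log2 fold change of -1.08 ± 0.05 (adjusted p = 1.53e-33). Srebf1, which encodes the SREBP most tied to fatty acid genes, had 218, 216 and 221 CPM with GSK3326595, against 344, 341 and 354 CPM with DMSO (-0.67 ± 0.04, adjusted p = 4.44e-30). Srebf2, for the SREBP most tied to sterol genes, had 159, 147 and 151 CPM with GSK3326595, against 200.4, 203 and 201 CPM with DMSO (-0.40 ± 0.04, adjusted p = 1.00e-15). Both were lower in every treated library. Scap fell by 0.13, and Insig2 did not pass at 0.07 ± 0.14. Npc2, for the soluble lysosomal protein that hands cholesterol to NPC1, was the gene that rose: it had 359.7, 354 and 367 CPM with GSK3326595, against 247, 251 and 243 CPM with DMSO (0.54 ± 0.04, adjusted p = 6.78e-25), with no overlap. The sterol exporter gene Abcg1 fell by 0.43 and the sterol carrier gene Stard4 by 0.24. Npc1, Soat1 and Mylip did not pass, at 0.10, 0.17 and -0.18. Abca1 had 0.92, 0.645 and 0.599 CPM with GSK3326595, against 1.11, 1.14 and 0.97 CPM with DMSO, without overlap but not called (-0.56 ± 0.38, adjusted p = 0.213). The summed level of the 7 T cell markers was 4048 to 4093 CPM with GSK3326595, 3224 to 3285 CPM with MRTX1719 and 2876 to 2885 CPM with DMSO, and that of the fibroblast and endothelial list, with Lum, Pdgfra, Cdh5 and Kdr under 1 CPM, was 46.0 to 60.3, 26.4 to 32.8 and 29.6 to 36.9 CPM in the same order. The 4 NK cell markers, with Ncr1 and Klra8 under 1 CPM, summed to 194 to 203 CPM with GSK3326595, 185 to 191 CPM with MRTX1719 and 154 to 168 CPM with DMSO. The part of these shifts in the results was not tested, and in bulk libraries fewer cells of a type and less RNA per cell cannot be told apart.

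**Figure D1:**
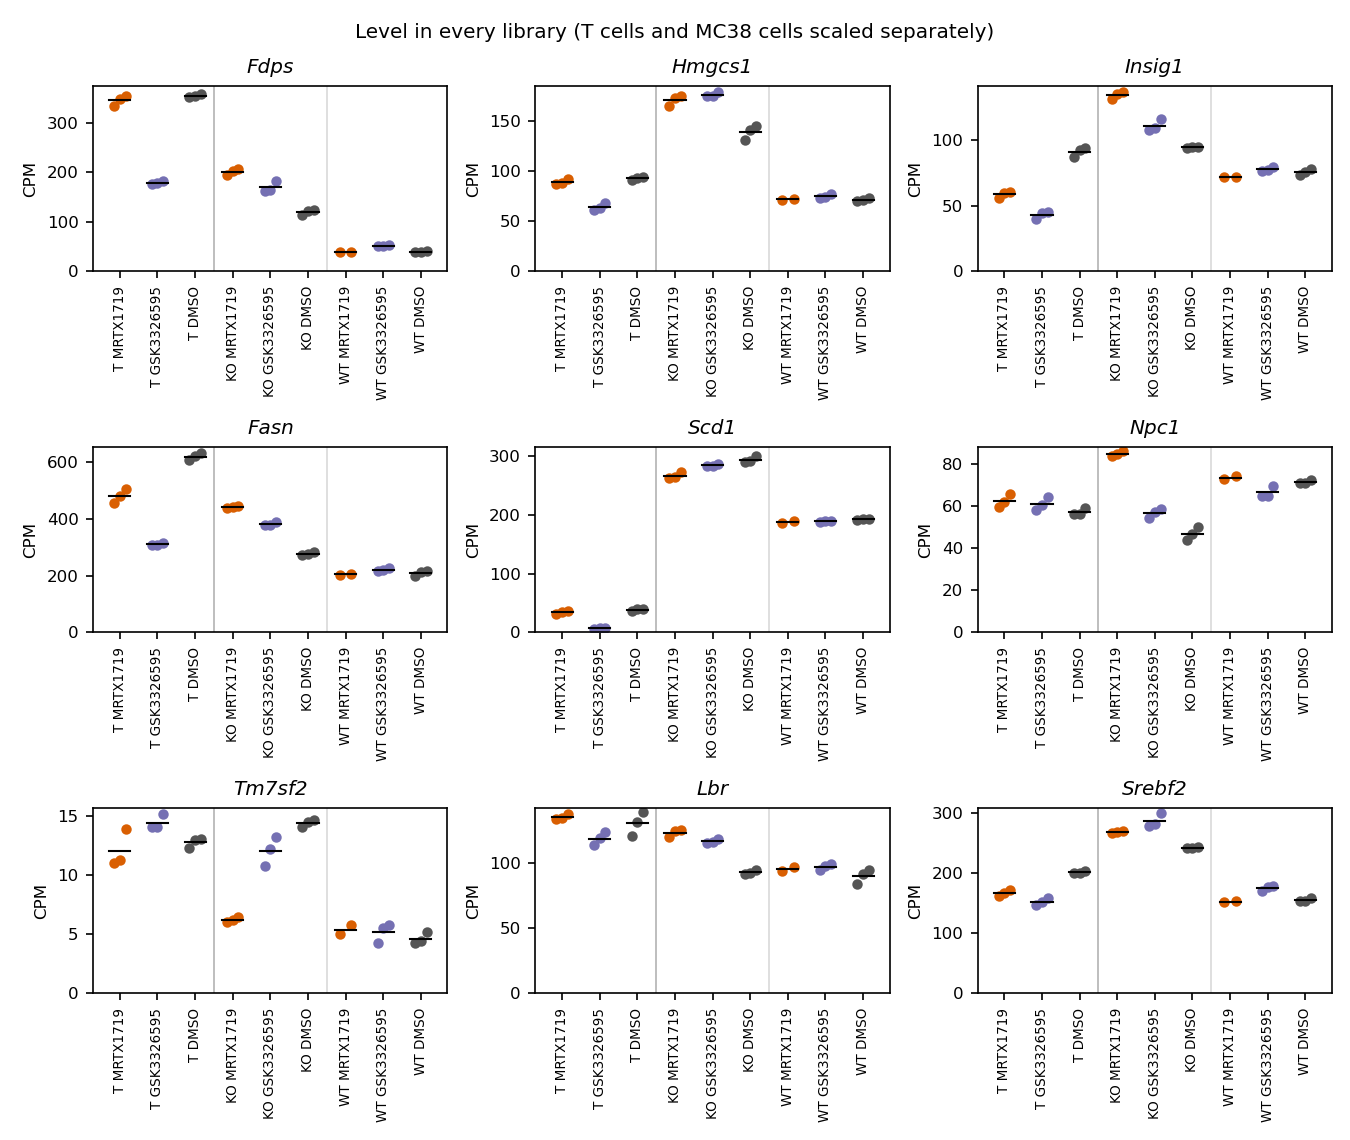
Level in CPM (vertical axis, from 0) of 9 genes in every library, 1 point per library set side by side from low to high, with the group mean as a line; T cell groups, KO MC38 groups and WT MC38 groups stand left, middle and right, each with MRTX1719, GSK3326595 and DMSO. Scd1, Fasn and Fdps of GSK3326595-treated T cells lie under their DMSO libraries, whereas Fasn and Fdps of treated KO cells lie above theirs, and Tm7sf2 is lowest among KO groups with MRTX1719.

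With MRTX1719, the SREBP genes, Insig1 and most fatty acid genes fell in T cells, while most sterol synthesis genes did not pass. Of 39 tested, 13 fell, 6 rose and 20 did not pass, which is 19 called against a background of 37.4% of all genes (18.5% lower and 18.9% higher), and the median was -0.07, beside 0.00 for all genes. Insig1 had 60.0, 60.2 and 55.9 CPM with MRTX1719, against 93.6, 92.5 and 86.9 CPM with DMSO, apart in all libraries (-0.64 ± 0.05, adjusted p = 2.18e-19). Srebf1 had 277, 278 and 293 CPM with MRTX1719, against 344, 341 and 354 CPM with DMSO (-0.30 ± 0.04, adjusted p = 3.51e-11), and Srebf2 had 167, 161 and 171 CPM with MRTX1719, against 200.4, 203 and 201 CPM with DMSO (-0.27 ± 0.04, adjusted p = 5.86e-09). So both SREBP genes and Insig1 were lower in every MRTX1719 library than in any DMSO library.

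Fatty acid genes again leaned lower with MRTX1719 in T cells, 5 lower and 3 not called. Scd2 had 429, 415 and 423 CPM with MRTX1719, against 616, 645 and 608 CPM with DMSO (-0.56 ± 0.03, adjusted p = 7.80e-26), without overlap. Fasn fell by 0.37, Fads2 by 0.24, Scd1 by 0.18 and Acaca by 0.15, while Elovl6, Fads1 and Acly did not pass, at -0.11, -0.13 and 0.02. Of the mevalonate genes 2 rose and 5 did not pass. Pmvk, for phosphomevalonate kinase, had 61.4, 62.7 and 66.2 CPM with MRTX1719, against 45.9, 56.0 and 50.4 CPM with DMSO (0.33 ± 0.06, adjusted p = 1.38e-06), and Idi1 rose by 0.31, whereas Fdps did not pass at -0.04 ± 0.04. Past squalene Cyp51, for the lanosterol demethylase, rose by 0.31, while Hsd17b7, Sc5d and Lss fell. Hsd17b7 had 5.73, 6.40 and 5.78 CPM with MRTX1719, against 8.76, 7.74 and 8.43 CPM with DMSO (-0.48 ± 0.14, adjusted p = 0.00356). In transport and storage Npc2 rose by 0.51, Stard4 by 0.14 and Npc1 by 0.13. Mylip, which encodes a ubiquitin ligase of the LXR pathway, had 8.05, 6.23 and 7.51 CPM with MRTX1719, against 9.56, 10.2 and 11.9 CPM with DMSO (-0.54 ± 0.12, adjusted p = 1.87e-04), and Abcg1 fell by 0.47. Abca1 had 0.58, 1.22 and 0.889 CPM with MRTX1719, against 1.11, 1.14 and 0.97 CPM with DMSO, overlapping (-0.23 ± 0.37, adjusted p = 0.667).

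The 2 inhibitors, at the same dose and time, were then compared directly in T cells. Of 39 genes, 31 were higher and 3 lower with MRTX1719 than with GSK3326595, which is 34 called against 39.1% of all genes (19.3% higher and 19.7% lower), with a median of 0.39, beside 0.00 for all genes. Every mevalonate and fatty acid gene was higher with MRTX1719. Scd1 had 32.0, 36.2 and 33.9 CPM with MRTX1719, against 5.62, 7.16 and 7.89 CPM with GSK3326595, a difference of 2.31 ± 0.09 in log2 units (adjusted p = 6.70e-39). Fads2 differed by 1.43 ± 0.06 and Scd2 by 0.72 ± 0.04. Fdps had 334, 354 and 348 CPM with MRTX1719, against 179, 176 and 182 CPM with GSK3326595 (0.95 ± 0.04, adjusted p = 8.82e-40), so that its level with MRTX1719 lay near the DMSO level and its level with GSK3326595 far under it. Mvk, Mvd and Pmvk differed by 0.80, 0.78 and 0.62. Of the genes past squalene Dhcr7 differed most, with 25.2, 25.3 and 26.0 CPM with MRTX1719, against 18.8, 16.0 and 18.9 CPM with GSK3326595 (0.50 ± 0.08, adjusted p = 8.82e-08). Insig1 and Srebf1 were higher with MRTX1719 by 0.44 and 0.37. Srebf2 was higher by 0.13 (adjusted p = 0.00584), a call lost without GSK3326595 replicate 2 (adjusted p = 0.0601). Stard4 had 62.0, 58.3 and 57.1 CPM with MRTX1719, against 45.4, 41.3 and 48.9 CPM with GSK3326595 (0.38 ± 0.06, adjusted p = 1.59e-08). Lower with MRTX1719 were Mylip (-0.36), Soat1 (-0.34) and Tm7sf2 (-0.24), and Vps51, which overlaps Tm7sf2, was lower too, by 0.49 in log2 units. Insig2, Npc1, Npc2, Abca1 and Abcg1 were not told apart, with 95% intervals of the log2 difference of -0.35 to 0.19 for Insig2, -0.07 to 0.13 for Npc1, -0.11 to 0.03 for Npc2, -0.42 to 1.08 for Abca1 and -0.18 to 0.10 for Abcg1.

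In KO MC38 cells most of the genes were higher with either inhibitor. With MRTX1719, 27 of 38 genes rose, 6 fell and 5 did not pass, which is 33 called against a background of 70.5% of all 14835 genes tested, with 37% higher and 33.6% lower. The median was 0.31, beside 0.02 for all genes. Of 7 mevalonate genes 6 rose and 1 did not pass, of 12 genes between squalene and cholesterol 9 rose and 1 fell, and fatty acid genes split, 4 higher and 3 lower.

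Acat2 had 51.3, 50.5 and 50.3 CPM with MRTX1719, against 27.8, 29.1 and 30.3 CPM with DMSO in KO cells, with no overlap (0.80 ± 0.05, adjusted p = 3.22e-34). Its near copy Acat3, with 171 counts over all MC38 libraries against 13143 for Acat2, was lower, by 1.81 in log2 units. Tcp1, 98.7% identical to Acat2 over 445 bases and with 204197 counts, was higher, by 0.27. The part of shared reads in the Acat2 value was not tested. Fdps averaged 201 ± 6.82 CPM with MRTX1719 and 119 ± 5.53 CPM with DMSO (SD, n = 3 each; 0.75 ± 0.03). Idi1 rose by 0.71, Mvd by 0.47, Hmgcs1 by 0.30 and Mvk by 0.22, while Pmvk did not pass at 0.11 ± 0.06. Msmo1 rose by 0.65, Lss by 0.61, Fdft1, for squalene synthase, by 0.60, Lbr by 0.41, Dhcr7 by 0.39 and Sqle, for squalene epoxidase, by 0.32. The gene of this route that fell was Tm7sf2, with 6.22, 6.48 and 6.03 CPM with MRTX1719, against 14.5, 14.7 and 14.1 CPM with DMSO. Its level was 0.433 of that with DMSO (-1.21 ± 0.09, adjusted p = 6.31e-25), lower in all 3 libraries, and Vps51 was lower by 0.16 in log2 units. Lbr, which carries out the same reduction, rose. Ctsb, whose exons overlap those of Fdft1 by 774 bases on the opposite strand, was higher too, by 0.30 in log2 units. It had 213033 counts over all MC38 libraries, against 20746 for Fdft1.

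All 5 control genes changed with MRTX1719 in KO cells. Insig2, for the INSIG protein that is less tied to SREBP, had 64.4, 67.8 and 65.8 CPM with MRTX1719, against 41.6, 39.6 and 38.4 CPM with DMSO (0.73 ± 0.04, adjusted p = 3.02e-37). Insig1 had 135, 131 and 136 CPM with MRTX1719, against 94.6, 93.8 and 94.9 CPM with DMSO (0.50 ± 0.03, adjusted p = 8.30e-33). Both INSIG genes were higher in every treated library, and Scap rose by 0.56. Srebf2 had 268, 266 and 269.7 CPM with MRTX1719, against 242, 243 and 242 CPM with DMSO (0.15 ± 0.02, adjusted p = 3.50e-08). Srebf1 had 112, 114 and 109 CPM with MRTX1719, against 140.5, 133 and 135 CPM with DMSO (-0.28 ± 0.03, adjusted p = 2.56e-15). The SREBP genes thus went opposite ways, Srebf2 higher and Srebf1 lower, each without overlap.

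Npc1, for the membrane protein that lets cholesterol out of lysosomes, had 84.9, 83.9 and 86.1 CPM with MRTX1719, against 49.9, 46.9 and 44.1 CPM with DMSO in KO cells (0.86 ± 0.04, adjusted p = 1.82e-46). Rmc1, whose exons overlap those of Npc1 by 511 bases on the opposite strand, was higher too, by 0.38 in log2 units. Soat1, for the enzyme that esterifies cholesterol, rose by 0.68, and Stard4 by 0.21. Abca1 had 72.0, 71.3 and 73.0 CPM with MRTX1719, against 51.7, 55.4 and 53.8 CPM with DMSO (0.42 ± 0.04, adjusted p = 8.46e-21), and Mylip fell by 0.38. Abcg1 had 0 to 8 counts in each MC38 library and was not tested. Fasn had 445, 442 and 437 CPM with MRTX1719, against 284, 275 and 272 CPM with DMSO (0.67 ± 0.02, adjusted p = 1.75e-59), and Elovl6 and Acly rose by 0.45 and 0.45. The desaturase genes did not follow: Fads2 fell by 0.25, Scd2 by 0.17 and Scd1 by 0.14. The 8 fibroblast and endothelial markers, with Pecam1 and Kdr under 1 CPM, summed to 4767 to 4844 CPM with MRTX1719, 6369 to 6599 CPM with GSK3326595 and 8596 to 8980 CPM with DMSO in KO cells. The epithelial list, with Krt18, Krt19, Epcam, Cdh1 and Vil1 under 1 CPM, summed to 59.3 to 60.9, 59.9 to 62.6 and 14.6 to 15.9 CPM in the same groups. The 6 myeloid markers, with Csf1r, Adgre1 and Itgam under 1 CPM, summed to 34.7 to 39.6, 29.2 to 32.3 and 23.5 to 25.5 CPM in the same groups, and the part of these shifts in the results was not tested.

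GSK3326595 in KO cells raised 27 of 38 genes and lowered 5, which is 32 called against a background of 52.8% of all genes, with 27.7% higher and 25.1% lower. The median was 0.25, beside 0.01 for all genes. Fdps had 182, 163 and 164 CPM with GSK3326595, against 113, 123 and 122 CPM with DMSO (0.50 ± 0.03, adjusted p = 2.99e-21). Lss had 48.0, 43.3 and 43.4 CPM with GSK3326595, against 32.3, 34.8 and 31.3 CPM with DMSO (0.45 ± 0.05, adjusted p = 1.35e-15). Neither gene overlapped between groups. Idi1, Acat2 and Hmgcs1 rose by 0.48, 0.46 and 0.34, and Fdft1, Msmo1, Sqle, Hsd17b7 and Lbr by 0.33 to 0.38. Ebp, for a sterol isomerase, fell by 0.21 and Tm7sf2 by 0.26.

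Among control genes Insig2 had 50.5, 52.7 and 53.1 CPM with GSK3326595, against 41.6, 39.6 and 38.4 CPM with DMSO in KO cells (0.39 ± 0.04, adjusted p = 1.23e-15). Srebf2 had 300.3, 282 and 278 CPM with GSK3326595, against 242, 243 and 242 CPM with DMSO (0.24 ± 0.02, adjusted p = 3.17e-17). Insig1 had 109, 116 and 107 CPM with GSK3326595, against 94.6, 93.8 and 94.9 CPM with DMSO (0.23 ± 0.03, adjusted p = 1.07e-10). These 3 were higher in every treated library. Srebf1 had 137, 126 and 123 CPM with GSK3326595, against 140.5, 133 and 135 CPM with DMSO, with overlap. Its small decrease (-0.08 ± 0.03, adjusted p = 0.0138) lost its call with DESeq2 (adjusted p = 0.0507) and without DMSO replicate 1, GSK3326595 replicate 2 or GSK3326595 replicate 3 (adjusted p = 0.0983, 0.0808 and 0.16). Soat1 had 122, 127 and 124 CPM with GSK3326595, against 92.5, 84.5 and 83.7 CPM with DMSO (0.52 ± 0.03, adjusted p = 1.40e-32), Abca1 had 64.0, 64.7 and 67.2 CPM with GSK3326595, against 51.7, 55.4 and 53.8 CPM with DMSO (0.28 ± 0.04, adjusted p = 4.30e-11), and Mylip fell by 0.37. Elovl6 had 29.5, 30.1 and 33.9 CPM with GSK3326595, against 21.9, 23.7 and 22.2 CPM with DMSO (0.46 ± 0.06, adjusted p = 3.48e-12), and Fasn rose by 0.46. Scd1, Fads2 and Acaca did not pass, at -0.05, 0.06 and 0.04.

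Between the inhibitors in KO cells, 20 genes were higher and 7 lower with MRTX1719 than with GSK3326595, which is 27 called against 53.2% of all genes (28.3% higher and 24.9% lower), and the median was 0.07, beside 0.01. Tm7sf2 had 6.22, 6.48 and 6.03 CPM with MRTX1719, against 12.2, 13.3 and 10.8 CPM with GSK3326595 (-0.95 ± 0.09, adjusted p = 4.09e-17). Npc1 had 84.9, 83.9 and 86.1 CPM with MRTX1719, against 54.3, 57.1 and 58.7 CPM with GSK3326595 (0.58 ± 0.04, adjusted p = 2.05e-31). These were the largest differences in each direction, both without overlap, and Rmc1, which overlaps Npc1, was higher by 0.25. Insig2 differed by 0.34 ± 0.04, Acat2 by 0.34 ± 0.04, Insig1 by 0.27 ± 0.03 and Abca1 by 0.14 ± 0.04. Fads2 had 72.5, 75.2 and 71.1 CPM with MRTX1719, against 91.9, 90.1 and 89.8 CPM with GSK3326595 (-0.31 ± 0.03, adjusted p = 4.17e-15), and Scd2, Srebf1, Cyp51, Srebf2 and Scd1 were also lower with MRTX1719, by 0.09 to 0.30. Hmgcs1, Mvk, Pmvk, Sqle and 7 other genes were not told apart, with intervals such as -0.10 to 0.01 for Hmgcs1, -0.12 to 0.13 for Mvk and -0.09 to 0.03 for Sqle.

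In WT MC38 cells the changes were small. With MRTX1719, 0 of 38 genes rose and 3 fell, against a background of 7.53% of all genes called (3.62% higher and 3.91% lower), and the median was -0.02, beside 0.00 for all genes. At an unadjusted p under 0.05, 1 was higher and 6 lower, and DESeq2 called 0 higher and 3 lower. The matching shares of all genes are not reported here, so these counts stand without a background. Nsdhl, for a sterol dehydrogenase, had 6.61 and 6.51 CPM with MRTX1719, against 8.02, 7.92 and 9.91 CPM with DMSO (-0.39 ± 0.11, adjusted p = 0.00956). Srebf1 had 80.7 and 84.3 CPM with MRTX1719, against 91.4, 89.1 and 89.8 CPM with DMSO (-0.13 ± 0.04, adjusted p = 0.0144). Scd2 had 372 and 374 CPM with MRTX1719, against 401, 406 and 409.7 CPM with DMSO (-0.12 ± 0.02, adjusted p = 3.14e-05). All 3 were lower in both treated libraries than in any DMSO library. With only 2 treated libraries, 16 of the 38 genes did not overlap between groups, and the share of all genes without overlap is not reported here. Srebf2 had 153 and 152 CPM with MRTX1719, against 153, 158 and 154 CPM with DMSO, overlapping (-0.02 ± 0.03, adjusted p = 0.726). Insig1 had 71.9 and 72.0 CPM with MRTX1719, against 78.0, 73.6 and 75.7 CPM with DMSO, and did not pass (-0.07 ± 0.04, adjusted p = 0.254). Abca1 had 53.7 and 53.4 CPM with MRTX1719, against 58.3, 56.9 and 58.1 CPM with DMSO, and did not pass either (-0.11 ± 0.04, adjusted p = 0.0978), though neither gene overlapped between groups. Without MRTX1719 replicate 1 the count was 1 gene, where the library left was taken to vary as much as those of other groups. The call of Nsdhl was lost without DMSO replicate 3 or either MRTX1719 library (adjusted p = 0.0943 to 0.148), and that of Srebf1 without DMSO replicate 1 or MRTX1719 replicate 1 (adjusted p = 0.0702 and 0.333).

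With GSK3326595 in WT cells 16 genes rose, 7 fell and 15 did not pass, which is 23 called against a background of 41.1% of all genes (20.1% higher and 21.1% lower), with a median of 0.08, beside 0.00. Genes between squalene and cholesterol had 8 higher and 1 lower. Msmo1, for a sterol methyl oxidase, had 84.6, 81.2 and 84.5 CPM with GSK3326595, against 61.9, 65.5 and 64.5 CPM with DMSO (0.38 ± 0.03, adjusted p = 1.81e-19). Fdps had 50.8, 51.1 and 53.2 CPM with GSK3326595, against 40.2, 38.5 and 41.6 CPM with DMSO (0.37 ± 0.04, adjusted p = 2.00e-10). Srebf2 had 169.7, 178 and 176 CPM with GSK3326595, against 153, 158 and 154 CPM with DMSO (0.17 ± 0.03, adjusted p = 8.44e-09). Each was higher in every treated library. Lss, Hsd17b7, Dhcr7 and Mvd rose by 0.25 to 0.33, and Acat2, Ebp, Npc2, Abca1, Npc1, Scap and Acaca fell by 0.09 to 0.24. Npc2 had 197, 202 and 199.6 CPM with GSK3326595, against 227, 232 and 233 CPM with DMSO (-0.21 ± 0.02, adjusted p = 1.57e-13), and Acaca had 103, 102 and 103 CPM with GSK3326595, against 109, 109 and 109.9 CPM with DMSO (-0.09 ± 0.03, adjusted p = 0.0118). Abca1 had 51.4, 52.8 and 50.8 CPM with GSK3326595, against 58.3, 56.9 and 58.1 CPM with DMSO (-0.16 ± 0.04, adjusted p = 1.68e-04). All 3 were lower in each treated library. Srebf1 and Insig1 did not pass, at -0.07 ± 0.03 and 0.04 ± 0.03.

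MRTX1719 set directly against GSK3326595 in WT cells had 2 genes higher and 15 lower, which is 17 called against 30% of all genes (15.4% higher and 14.6% lower), with a median of -0.07, beside 0.00. Fdps had 38.7 and 39.6 CPM with MRTX1719, against 50.8, 51.1 and 53.2 CPM with GSK3326595 (-0.40 ± 0.05, adjusted p = 7.89e-10). Dhcr7 had 13.6 and 13.5 CPM with MRTX1719, against 18.9, 18.1 and 16.9 CPM with GSK3326595 (-0.40 ± 0.07, adjusted p = 2.77e-06). Both were lower with MRTX1719 in each library, as was Msmo1 at -0.40 ± 0.04. Srebf2 differed by -0.19 ± 0.03, Scd2 by -0.18 ± 0.02 and Insig1 by -0.11 ± 0.04, and Npc1 and Npc2 were higher with MRTX1719, at 0.15 ± 0.04 and 0.15 ± 0.03. Mylip had 17.7 and 18.9 CPM with MRTX1719, against 20.1, 20.9 and 21.2 CPM with GSK3326595 (-0.18 ± 0.06, adjusted p = 0.0208), and its call was lost with DESeq2 (adjusted p = 0.0653), with no filter on low counts (0.0633) and without MRTX1719 replicate 1 (0.25), GSK3326595 replicate 2 (0.0509) or GSK3326595 replicate 3 (0.0655). Insig1 likewise lost its call with DESeq2 (adjusted p = 0.0542), with no filter (0.0558) and without GSK3326595 replicate 1 (0.0814), MRTX1719 replicate 1 (0.101) or MRTX1719 replicate 3 (0.0828). Without MRTX1719 replicate 1 the count of called genes was 10. Genes not told apart included Hmgcs1, with an interval of -0.14 to 0.01, Srebf1, with -0.13 to 0.01, and Scd1, with -0.06 to 0.04. Intervals are not adjusted for the number of genes tested, while calls are. Of the genes not called, Acat2 (0.03 to 0.27), Pmvk (-0.26 to -0.0013), Acly (-0.11 to -0.01) and Acaca (0.01 to 0.14) had intervals that excluded equal levels. In WT cells the fibroblast and endothelial list summed to 2775 to 2809 CPM with MRTX1719, 3096 to 3128 CPM with GSK3326595 and 3008 to 3032 CPM with DMSO, and the epithelial list to 24.7 to 25.2, 39.04 to 40.8 and 22.2 to 24.9 CPM in the same order, whose part in the results was not tested.

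**Figure D2:**
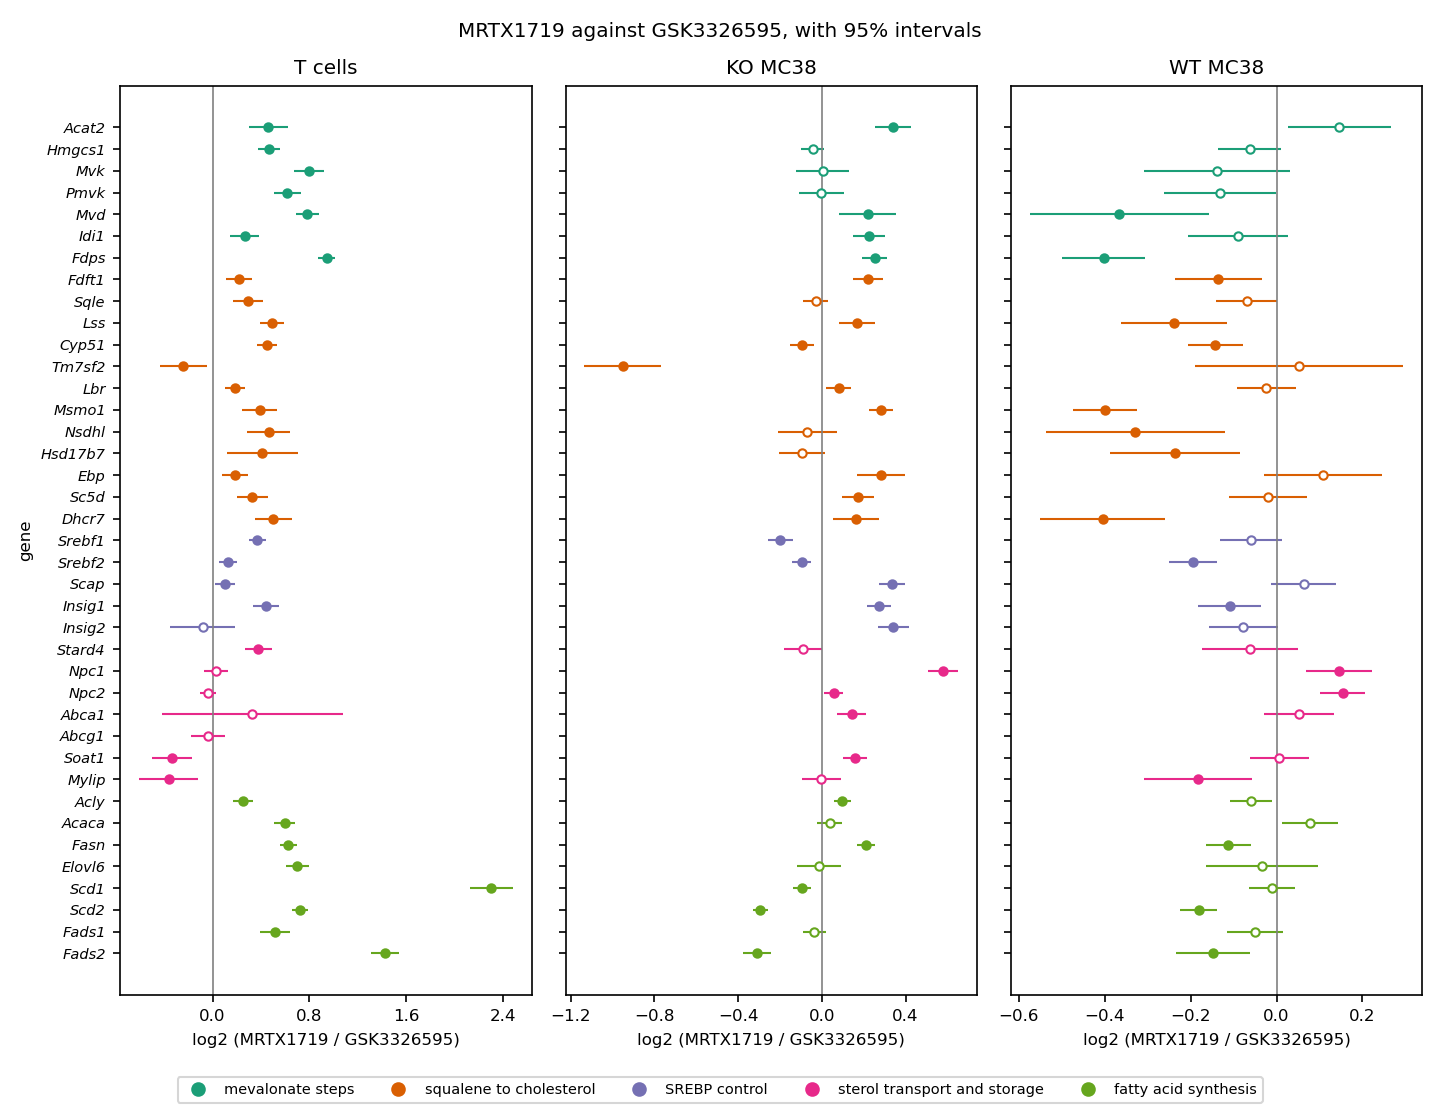
Log2 ratio of MRTX1719 to GSK3326595 (horizontal axis, scaled separately in each panel) for each gene (vertical axis, coloured by role) in T cells, KO MC38 cells and WT MC38 cells; bars are 95% intervals, filled points passed the adjusted p threshold and open points did not, and Abcg1 was not tested in MC38 cells. In T cells 31 called genes lie to the right, led by Scd1. In KO cells Tm7sf2 stands far to the left, and in WT cells 15 called genes lie to the left.

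Whether each inhibitor acted differently in KO and WT cells was tested as the difference between the fold changes. For MRTX1719, 25 of 38 genes had a more positive effect in KO cells and 5 a more negative one, which is 30 called against a background of 58.2% of all genes (30.3% more positive and 27.9% more negative), and the median difference was 0.30, beside 0.01 for all genes. Tm7sf2 had log2 fold changes of -1.21 in KO cells and 0.22 in WT cells, a difference of -1.43 ± 0.16 (adjusted p = 2.01e-14). Acat2 had 0.80 in KO cells and -0.09 in WT cells (0.89 ± 0.08, adjusted p = 5.98e-21). Npc1 had 0.86 and 0.04 in the same order (0.82 ± 0.05, adjusted p = 4.60e-29). The effect on these genes was thus larger in size in KO cells. The difference for Rmc1, which overlaps Npc1, was 0.32. Fasn differed by 0.71 ± 0.04, Insig2 by 0.67 ± 0.06, Insig1 by 0.58 ± 0.05, Abca1 by 0.53 ± 0.06, Srebf2 by 0.17 ± 0.04 and Srebf1 by -0.15 ± 0.05, the last losing its call without WT MRTX1719 replicate 3 (adjusted p = 0.0568). Mvk, Pmvk, Hsd17b7, Ebp, Npc2, Acaca, Scd2 and Fads1 did not pass.

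For GSK3326595, 19 genes had a more positive effect in KO cells and 2 a more negative one, which is 21 called against 42.2% of all genes (22% more positive and 20.2% more negative), and the median difference was 0.12, beside -0.01. Acat2 went opposite ways, with a log2 fold change of 0.46 in KO cells and -0.24 in WT cells (0.70 ± 0.07, adjusted p = 2.52e-15). Mylip also went opposite ways, with -0.37 in KO cells and 0.17 in WT cells (-0.54 ± 0.07, adjusted p = 1.87e-10). Abca1 had 0.28 and -0.16 in the same order (0.44 ± 0.05, adjusted p = 1.10e-12). For these 3 the fold changes in KO and WT cells thus had opposite signs. All 6 transport and storage genes tested differed between the lines, with Soat1 at 0.51 ± 0.04 and Npc1 at 0.38 ± 0.05. Fasn differed by 0.38 ± 0.03, Scap by 0.32 ± 0.05 and Insig1 by 0.19 ± 0.05. Tm7sf2 differed by -0.43 ± 0.14 (adjusted p = 0.00919), and that call was lost with DESeq2 (adjusted p = 0.0834) and without WT GSK3326595 replicate 1 (adjusted p = 0.0635). The difference for Vps51, which overlaps Tm7sf2, was -0.26. Fdps, Mvd, Msmo1, Hsd17b7, Srebf1 and Srebf2 were among 17 genes that did not pass, Srebf2 at 0.07 ± 0.04, although Srebf2 passed without KO GSK3326595 replicate 3 (adjusted p = 0.0371).

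With no inhibitor, KO cells differed from WT cells at 36 of 38 genes, 31 higher and 5 lower, against a background of 73.2% of all genes, with 36.2% higher and 37% lower. The median was 0.43, beside 0.01 for all genes. The largest log2 fold change was at Tm7sf2, which had 14.5, 14.7 and 14.1 CPM in KO cells, against 5.24, 4.24 and 4.43 CPM in WT cells (1.64 ± 0.10, adjusted p = 2.95e-34), and Vps51 was higher too, by 1.08. Scd2 had 1158, 1141 and 1127 CPM in KO cells, against 401, 406 and 409.7 CPM in WT cells (1.49 ± 0.02, adjusted p = 9.03e-112). Mylip had 46.8, 47.0 and 45.4 CPM in KO cells, against 18.8, 18.7 and 17.8 CPM in WT cells (1.33 ± 0.05, adjusted p = 5.68e-53). None of these overlapped between the lines. Srebf2 had 242, 243 and 242 CPM in KO cells, against 153, 158 and 154 CPM in WT cells (0.64 ± 0.03, adjusted p = 4.91e-52), Srebf1 rose by 0.59, Insig1 by 0.32 and Fads2 by 0.95. Fdps averaged 119 ± 5.53 CPM in KO cells and 40.1 ± 1.57 CPM in WT cells (SD, n = 3 each).

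The 5 genes that were lower in KO cells lay outside the synthesis of sterols. Npc1 fell by 0.61, with the overlapping Rmc1 at -0.42, and Insig2 by 0.42, while Abca1, Acaca and Soat1 fell by 0.09 to 0.10. Abca1 had 51.7, 55.4 and 53.8 CPM in KO cells, against 58.3, 56.9 and 58.1 CPM in WT cells (-0.10 ± 0.04, adjusted p = 0.011), and lost its call with DESeq2 (adjusted p = 0.0681) and without KO DMSO replicate 1 (adjusted p = 0.0969). Cyp51 and Lbr did not pass, at 0.03 and 0.05. The same KO DMSO libraries enter the inhibitor comparisons in KO cells, so the values are set side by side without a test: Tm7sf2 was at 1.64 for KO against WT and -1.21 for MRTX1719 in KO cells, Npc1 at -0.61 and 0.86, and Fdps at 1.58 and 0.75. With DMSO the fibroblast and endothelial list summed to 8596 to 8980 CPM in KO cells and 3008 to 3032 CPM in WT cells. The myeloid list summed to 23.5 to 25.5 CPM in KO cells and 30.6 to 32.4 CPM in WT cells, and the NK cell list to 20.2 to 24.0 and 33.9 to 36.5 CPM in the same order, and the part of these lists in the differences was not tested.

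**Figure D3:**
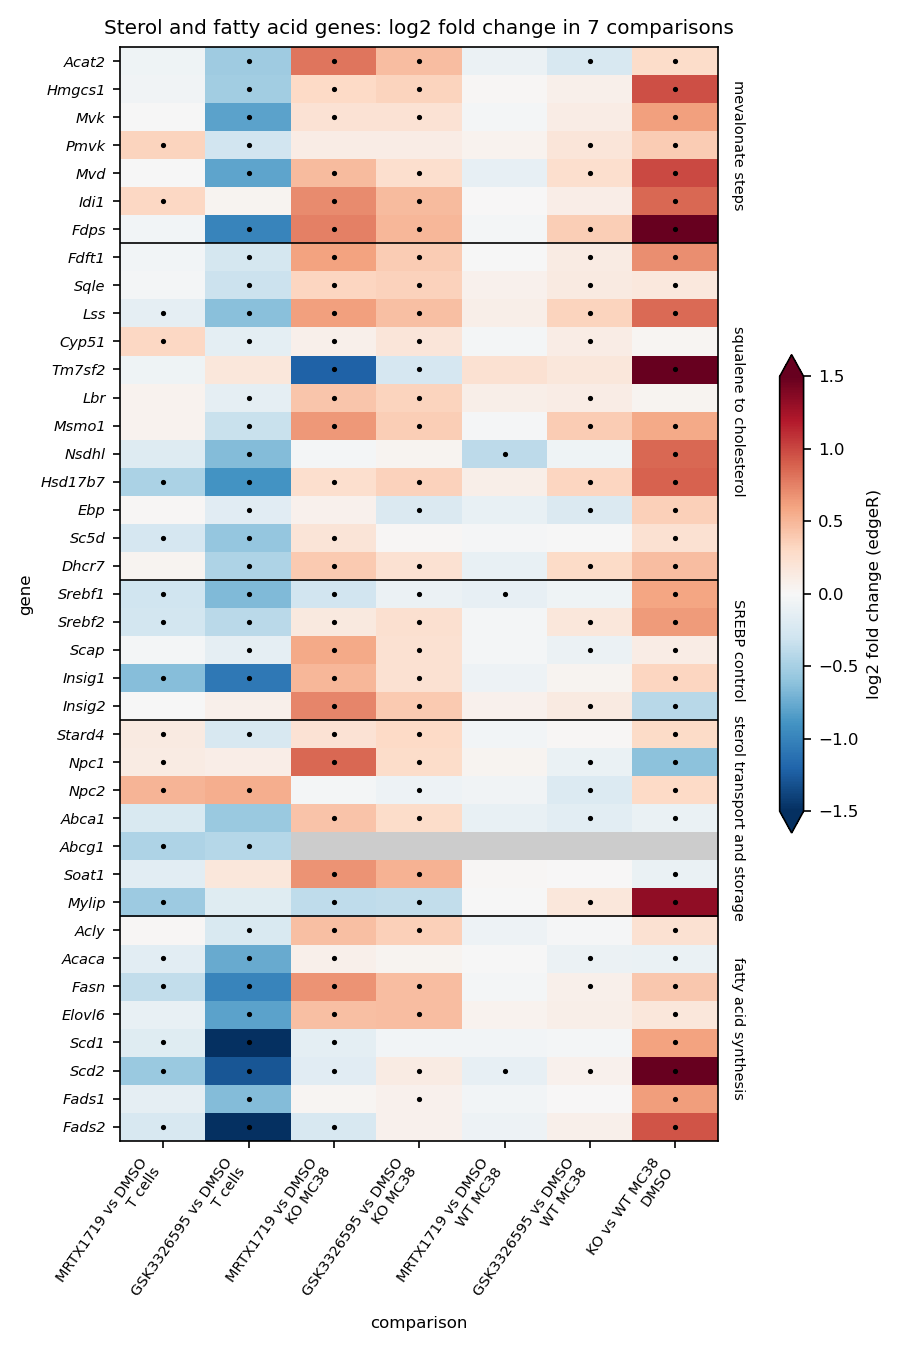
Log2 fold change (colour, capped at 1.5 in either direction) of each gene (rows, grouped by role) in 7 comparisons (columns); a black dot marks an adjusted p under 0.05 and grey a gene that was not tested. The T cell column for GSK3326595 is mostly blue, at 31 genes lower, both KO columns for the inhibitors are mostly red, at 27 higher each, and the WT column for MRTX1719 is nearly blank, at 3 called.

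Set beside each other, the T cell and KO MC38 responses to GSK3326595 had opposite signs for most of these genes. Of 38 genes tested in both, 22 rose in KO cells and fell in T cells, against 9.15% of the 11819 genes tested in both. The reverse held for 1 gene, Npc2, against 6.77% of all genes, and 2, Ebp and Srebf1, fell in both, against 8.13%. The 22 included Fdps, at 0.50 in KO cells and -0.98 in T cells, Lss, at 0.45 and -0.63, Insig1, at 0.23 and -1.08, and Srebf2, at 0.24 and -0.40. By single libraries, 24 genes had every GSK3326595 library above every DMSO library in KO cells and under every DMSO library in T cells, against 10% of all genes. In WT cells 14 genes rose with GSK3326595 while they fell in T cells, against 4.6% of all genes.

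With MRTX1719, 7 genes rose in KO cells and fell in T cells, against 8.73% of all genes: Fasn, Acaca, Insig1, Srebf2, Lss, Hsd17b7 and Sc5d. Another 4, Idi1, Cyp51, Npc1 and Stard4, rose in both, against 9.66%, and 5, Srebf1, Scd1, Scd2, Fads2 and Mylip, fell in both, against 7.04%. By single libraries, 7 genes had every MRTX1719 library above every DMSO library in KO cells and under every DMSO library in T cells, against 10.3% of all genes. The difference between T cells and MC38 cells was not tested, because their tables were fitted separately and the cells were treated for 3 and 5 days. Fasn in MRTX1719-treated cells was at 0.67 ± 0.02 in KO cells and -0.37 ± 0.03 in T cells, and Insig1 at 0.50 ± 0.03 and -0.64 ± 0.05.

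**Figure D4:**
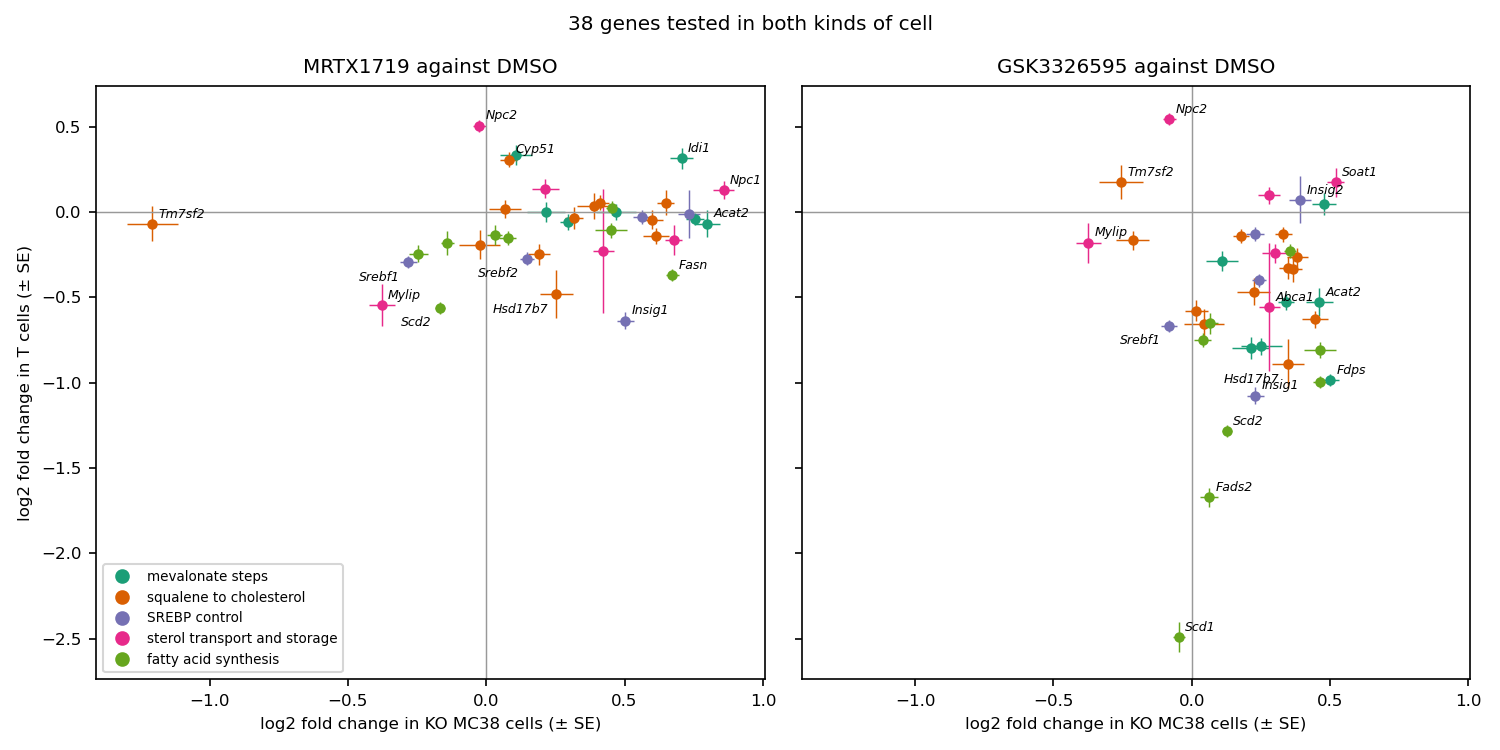
Log2 fold change in KO MC38 cells (horizontal axis) against that in T cells (vertical axis), each with its SE, for 38 genes coloured by role, with MRTX1719 in the left panel and GSK3326595 in the right. With GSK3326595 most points lie in the lower right part, where 22 genes were called in both, and with MRTX1719 the points spread along the horizontal axis, with 7 called there.

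Other genes of these pathways, 54 in lists of further synthesis, SREBP processing, uptake, LXR and fatty acid genes, moved in both directions. In T cells 47 could be tested, of which 11 rose and 23 fell with GSK3326595, which is 34 called against 52.8% of all genes, with a median of -0.22. With MRTX1719 10 rose and 16 fell, which is 26 called against 37.4% of all genes, with a median of -0.09, and both medians stand beside 0.00 for all genes. Slc25a1, for the citrate carrier that feeds cytosolic acetyl-CoA, averaged 17.2 ± 0.967 CPM with GSK3326595 and 44.3 ± 2.35 CPM with DMSO (SD, n = 3 each; -1.37 ± 0.07, adjusted p = 1.70e-31). Gramd1a, for a protein that moves sterol from the plasma membrane to the endoplasmic reticulum, averaged 707 ± 13.5 CPM with GSK3326595 and 298 ± 9.25 CPM with DMSO (1.25 ± 0.03). Between the inhibitors in T cells, 19 were higher and 9 lower with MRTX1719, which is 28 called against 39.1% of all genes, with Slc25a1 at 1.05 ± 0.07 and Gramd1a at -0.90 ± 0.03.

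In MC38 cells 46 of the 54 could be tested. With MRTX1719 in KO cells 24 rose and 14 fell, which is 38 called against 70.5% of all genes, with a median of 0.11, beside 0.02 for all genes. With GSK3326595 19 rose and 14 fell, which is 33 called against 52.8% of all genes, with a median of 0.03, beside 0.01. Apoe, for the lipoprotein component apolipoprotein E and a known LXR target, averaged 28.8 ± 0.331 CPM with MRTX1719 and 11.4 ± 0.687 CPM with DMSO in KO cells (SD, n = 3 each; 1.33 ± 0.07, adjusted p = 2.78e-40), and was at 0.86 ± 0.07 with GSK3326595. Slc25a1 was at -0.83 ± 0.05 with MRTX1719 and -0.44 ± 0.05 with GSK3326595, lower as it was with GSK3326595 in T cells. In WT cells 2 rose with MRTX1719, against 7.53% of all genes called, led by Elovl7 at 0.21 ± 0.06, and 44 did not pass. DESeq2 called 1, and 9 had an unadjusted p under 0.05, counts for which the shares of all genes are not reported here. With GSK3326595 15 rose and 8 fell, which is 23 called against 41.1% of all genes, between Gramd1a at 0.70 ± 0.04 and the lipoprotein receptor gene Lrp8 at -0.29 ± 0.05. The effect differed between KO and WT cells at 36 genes for MRTX1719 (23 more positive, 13 more negative), against 58.2% of all genes, and at 27 for GSK3326595 (15 and 12), against 42.2%, with Apoe at 1.30 ± 0.11 and 0.71 ± 0.10 and the retinoid X receptor gene Rxrb at -0.78 ± 0.07 and -0.44 ± 0.06. MRTX1719 against GSK3326595 had 16 higher and 9 lower in KO cells, which is 25 called against 53.2% of all genes, between Apoe (0.46 ± 0.06) and Rxrb (-0.51 ± 0.05), and 8 higher and 10 lower in WT cells, which is 18 called against 30%, between Paqr3 (0.28 ± 0.07) and Gramd1a (-0.63 ± 0.04). With DMSO, 21 were higher and 14 lower in KO cells than in WT cells, which is 35 called against 73.2% of all genes, with Gramd1a at 1.14 ± 0.04 and Lrp8 at -1.70 ± 0.06.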

How the data were processed

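Poly(A) RNA was measured in 26 libraries of MC38/gp100 cells and T cells. Raw counts and a normalized signal (counts divided by 1 size factor per library, as checked on the values) were deposited by the authors for each library, without pooling. The submitters' processing notes name the GRCm39 (mm39) build and the tools TopHat2 2.0.10, Bowtie2 2.1.0 and DESeq 1.18.0, with no roles. The library kit keeps strand, per the labels' protocols, but how counting was done, including its strand setting and annotation, is not given in the sources used here, and overlapping or antisense genes may share reads. The raw tables carry gene identifiers and the normalized tables gene names. For MC38 cells all 15629 named rows, and for T cells 15287 of 15300, were tied to 1 identifier by their values, within a tolerance of 1e-06, and levels and tests used the raw counts. The treatment label of GSK3326595 ends in another digit in replicates 2 and 3 while the titles agree, and it was taken as 1 compound.

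Genes were tested with edgeR 4.0.16 (R 4.3.3) by the quasi-likelihood test with TMM scaling, filterByExpr and robust estimation, all groups of a table in 1 fit. Adjusted p-values are Benjamini-Hochberg over all 14835 genes tested in MC38 cells or 13753 in T cells, with a threshold of 0.05. The SE is that of the log2 fold change, taken from the F statistic. Differences between KO and WT effects are interaction contrasts. The procedure was tested on simulated data. Alternatives were RLE scaling, no filter on low counts, DESeq2 1.42.0, fits of the compared groups only, a replicate block and leaving out each library. Intervals and p-values cover the spread between libraries and counting error only.

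Values in each library are given for Srebf1, Srebf2, Insig1 and Abca1 and, in each comparison and role, for the called gene with the largest log2 fold change and a mean of at least 5 CPM. Other listed pathway genes are given as counts with the largest change in each direction at that level. Some of these are not reported here. The gene set and all lists were chosen with earlier results of these data known, so agreement with those results is no independent support. Exon overlaps and shared sequence (at least 95% identity over 200 bases) were taken from a GRCm38 annotation, and promoters from a RefSeq table on GRCm38.p6.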

Additional observations from a re-analysis of the deposited data

Results flagged for a closer look

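The effect of GSK3326595 differed between KO and WT MC38 cells at 21 of 38 genes, against 42.2% of all genes, and that of MRTX1719 at 30, against 58.2%, by the test of the difference between the fold changes. For GSK3326595 the largest called differences by role were at Acat2 (0.70 in log2 units, KO minus WT), Tm7sf2 (-0.43), Scap (0.32), Mylip (-0.54) and Fasn (0.38). For MRTX1719 they were at Acat2 (0.89), Tm7sf2 (-1.43), Insig2 (0.67), Npc1 (0.82) and Fasn (0.71). Reads of Acat2, Tm7sf2, Npc1 and Scap can be shared with other genes. The differences for Rmc1, which overlaps Npc1, were 0.02 with GSK3326595 and 0.32 with MRTX1719, while the gene that overlaps Scap had 43 counts over all MC38 libraries and was not tested. For Vps51, which overlaps Tm7sf2, the differences were -0.26 with GSK3326595 and -0.16 with MRTX1719. Of the genes that share sequence with Acat2, Tcp1 was at 0.01 and 0.24 and Acat3 at -0.32 and -2.19, in the same order.

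By single libraries, 24 genes had every GSK3326595 library above every DMSO library in KO MC38 cells and under every DMSO library in T cells, against 10% of all genes, and 7 genes did so with MRTX1719, against 10.3% of all genes. This difference between MC38 cells and T cells was not tested.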

How the results depend on the processing

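The counts of called genes stayed within 1.5 times of those reported under RLE scaling, with no filter on low counts, with only the compared groups in the fit and with DESeq2, in all 12 comparisons. Under DESeq2 they were 12 for MRTX1719 against GSK3326595 in WT cells, against 17, and 15 for MRTX1719 in T cells, against 19. The shares of all genes called under the alternative settings and with libraries left out are not reported here. Counts under them therefore stand without a background, and a loss in these genes cannot be told from a general loss of calls. Without WT MRTX1719 replicate 1, MRTX1719 in WT cells called 1 gene and MRTX1719 against GSK3326595 in WT cells called 10, with ranges over the libraries left out of 1 to 4 and 10 to 17, and the cause was not tested. With 1 library left in that group, it was assumed to vary like the other groups. The counts of genes higher in KO MC38 cells and lower in T cells ranged from 21 to 22 for GSK3326595 and from 6 to 7 for MRTX1719 when 1 library was left out, and DESeq2 gave 21 and 5. Of 99 named gene results, RLE scaling, the replicate block and the fits of the compared groups moved none across the threshold. DESeq2 took the call from 5 and no filter from 2, while leaving out a library took it in 18 of 679 fits and gave it in 1. No direction of a called gene was reversed under these alternatives.

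Same-numbered libraries did not deviate together over all genes. Correlations lay between -0.0493 and 0.0454 among MC38 libraries and between -0.0396 and 0.0386 among those of T cells. These values cannot tell whether same-numbered libraries came from a shared culture or mouse, which the labels do not say. With the replicate block, 32 genes were called for GSK3326595 in T cells and 33 for MRTX1719 in KO cells, as without it, and 18 for MRTX1719 in T cells, against 19. Few reads lay behind Abca1 in T cells, at 0.58 to 1.22 CPM with MRTX1719, so small differences there could be missed. Its interval for MRTX1719 against GSK3326595 was wide, at -0.42 to 1.08. Abcg1 in MC38 cells had 0 to 8 counts and was not tested.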
